A study of Mus musculus with 8 samples.

Results

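The 10 genes described here, Dcn, Lum, Has1, Pcolce2, Pdgfra, Sulf1, Dpep1, Entpd2, Ctgf and Cxcl1, are transcribed by fibroblasts and were measured in RNA from sorted gut lymphocytes. They were picked from 52661 genes because they were high in the null libraries named 1 and A. Their levels in these libraries, and the contrast between osteopontin and null libraries, therefore chose them and are given as a description, with no test. The series holds 8 RNA sequencing libraries of CD45+ intraepithelial lymphocytes of C57BL/6 mice, immune cells that sit within the epithelium of the gut. In 4 osteopontin libraries the sorted cells had been kept for 24 h at 2 µg/ml of recombinant osteopontin, a secreted phosphoprotein that binds integrins and CD44. In 4 null libraries they had been kept for 24 h without it. All cells of both groups were in RPMI medium with 10% serum, and the age of the mice is not stated in the labels. Libraries of both groups are named 1, 2, A and B, and the labels do not say whether these were separate animals or cultures, so the p-values below measure the spread between libraries, which may be partly technical.

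Fibroblasts of the gut wall lie beneath the epithelium and around vessels, where they lay down collagens and proteoglycans and send signals to epithelial, endothelial and immune cells. The receptor PDGFRα marks most of them, and decorin and lumican are proteoglycans that bind collagen fibrils. Lymphocytes do not normally make this matrix, and the CD45 sort is meant to keep cells of blood origin.

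The upstream sequence of 3 of the genes is shown because the genes were high in the same libraries and each stretch holds a short motif for a known transcription factor family. The RefSeq promoter table (GRCm38.p6) matched 6 of the 10 genes: Entpd2, Pdgfra, Cxcl1, Dpep1, Pcolce2 and Has1. Each stretch is at most 250 bases long, ends at the base before the earliest annotated start, is written 5′ to 3′ on the gene's own strand, and has the motif in capitals. The capitals mark the NF-kB consensus in Cxcl1 (chr5:90890995-90891240, plus strand), the cAMP response element TGACGTCA in Has1 (chr17:17855206-17855438, minus strand) and the AP-1 motif TGANTCA, read here as TGAGTCA, in Entpd2 (chr2:25395624-25395873, plus strand).
Cxcl1: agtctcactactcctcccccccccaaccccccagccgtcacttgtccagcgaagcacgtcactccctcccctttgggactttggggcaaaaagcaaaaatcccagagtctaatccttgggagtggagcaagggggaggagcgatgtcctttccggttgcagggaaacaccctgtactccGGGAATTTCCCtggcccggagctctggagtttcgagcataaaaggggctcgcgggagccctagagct
Has1: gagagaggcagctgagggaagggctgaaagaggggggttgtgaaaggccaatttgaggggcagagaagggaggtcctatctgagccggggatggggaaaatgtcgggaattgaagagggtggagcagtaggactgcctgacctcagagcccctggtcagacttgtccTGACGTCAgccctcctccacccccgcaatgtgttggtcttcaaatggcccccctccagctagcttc
Entpd2: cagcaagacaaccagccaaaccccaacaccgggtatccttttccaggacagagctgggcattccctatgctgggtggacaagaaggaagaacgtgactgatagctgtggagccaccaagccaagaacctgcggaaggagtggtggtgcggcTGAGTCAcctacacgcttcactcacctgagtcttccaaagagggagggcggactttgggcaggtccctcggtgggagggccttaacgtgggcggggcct
In Cxcl1 the NF-kB consensus matched on both strands, at overlapping places beginning 67 and 66 bases before the end of the stretch. The cAMP response element began 66 bases before the end in Has1, and the AP-1 letters 99 bases before it in Entpd2. Of 32851 RefSeq promoter windows, each searched on both strands over the full 250 bases upstream, 3.9% held the NF-kB consensus, 1.55% the cAMP response element and 6.75% the AP-1 letters. No motif overlapped a motif of another kind, and each kind was found in 1 of the 6 windows. A match is a run of letters and not a measured binding site.

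Library totals ran from 49108969 to 71292125 estimated reads with osteopontin and from 57492806 to 71399847 without, so that 3 reads, taken as the floor of counting, equalled 0.0420 to 0.0611 CPM (reads of a gene relative to all reads of its library). Ptprc, which encodes CD45, stood at 2060 to 2163 CPM with osteopontin and 1886 to 2054 CPM without. Among 18631 tested genes, edgeR's quasi-likelihood fit called 0 lower and 0 higher in osteopontin than in null libraries at a Benjamini-Hochberg adjusted p under 0.05, or 0% in either direction. Unadjusted, p was under 0.05 for 388 genes fitted lower and 344 fitted higher. DESeq2 called 12 genes higher (0.0644%) and 29 lower (0.156%). When osteopontin library B was removed, edgeR called 35 genes lower and 2 higher. It called 1 gene higher when null library 1 was removed, and 1 gene lower when either library named 2 was removed. Without both libraries named B there were 1 higher and 48 lower.

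Reads of the 10 genes together numbered 35, 59, 16 and 174 in osteopontin libraries 1, 2, A and B, against 5785, 394, 6727 and 228 in null libraries 1, 2, A and B. Scaled to library size this came to 0.491, 0.865, 0.276 and 3.54 CPM with osteopontin and 100.6, 6.13, 94.2 and 3.48 CPM without. Null libraries 1 and A thus stood far above all others, null library 2 came next, and osteopontin library B and null library B were close to each other. For all 10 genes null libraries 1 and A were the 2 highest of the 8, which is the pattern that chose them, whereas 744 of the 18631 tested genes (3.99%) had it. Counts of this pattern in the gene lists below also take in untested genes, whereas that share covers tested genes only. The 2 groups overlapped for 8 of the 10 genes. All 4 osteopontin libraries lay below all 4 null libraries for Pcolce2 and Sulf1, a pattern found in 1.58% of tested genes, and nothing is read from this count because the contrast entered the choice. In bulk RNA of this kind, fewer fibroblasts and less RNA per fibroblast cannot be told apart.

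The most abundant of the 10 was Dcn, encoding decorin, a small leucine-rich proteoglycan that binds collagen fibrils and TGF-beta (chr10:97479609-97518143, plus strand, GRCm38, as are all positions below). It stood at 0.182, 0.249, 0.155 and 1.10 CPM in osteopontin libraries 1, 2, A and B, against 56.3, 3.40, 57.1 and 0.397 CPM in null libraries 1, 2, A and B. Dcn averaged 0.422 ± 0.454 CPM with osteopontin and 29.3 ± 31.7 CPM without (SD, n = 4 each), so the SD exceeded the mean in both groups. Null library B lay within the range of the osteopontin libraries. Lum encodes lumican, a relative of decorin that also sits on collagen fibrils, and lies on the same strand (chr10:97565128-97572703) with 46984 bases between the end of Dcn and its own start. Lum stood at 0.0421, 0.0587, 0 and 0.448 CPM in osteopontin libraries 1, 2, A and B, against 10.0, 0.435, 7.94 and 0.0763 CPM in null libraries of those names. All osteopontin libraries, and null libraries 2 and B, were below 1 CPM.

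Of 10 further small leucine-rich proteoglycans, 6 had null libraries 1 and A as their 2 highest: Bgn, Fmod, Ogn, Aspn, Prelp and Epyc. Among the 3 tested genes of the list, 1 (Bgn) did, against 3.99% of all tested genes. Bgn, the matrix proteoglycan biglycan, stood at 0.239, 0.235, 0.310 and 1.71 CPM in osteopontin libraries 1, 2, A and B, against 35.1, 1.80, 26.2 and 0.427 CPM in null libraries 1, 2, A and B. Ogn, osteoglycin, reached at most 0.142 CPM with osteopontin, against 4.82 CPM in null library 1 and 4.65 CPM in null library A. Kera, which encodes keratocan of the corneal stroma and follows Lum on the chromosome, had no read in any library. Only 3 of the 10 passed the filter on low counts, all 3 with a lower fitted level in osteopontin libraries and 0 called by edgeR, against 9296 of all tested genes (49.9%) with a fitted level below 0. A gene low in osteopontin libraries can pass that filter through its null libraries, so this direction is a description and supports nothing. Without the filter, Prelp of this family was called lower (log2 fold change -6.00, edgeR adjusted p = 0.0401). Without both libraries named B, Ogn (-6.43, adjusted p = 0.0125) and Aspn (-7.04, adjusted p = 0.0199) were called lower. With all libraries Prelp, Ogn and Aspn did not pass the filter, and they had few osteopontin reads. Their calls are therefore a description and support nothing.

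Pdgfra encodes the receptor for platelet-derived growth factors that marks most gut fibroblasts (chr5:75152292-75198215, plus strand). It stood at 0.0421, 0.0293, 0.0344 and 0.265 CPM in osteopontin libraries 1, 2, A and B, against 4.94, 0.342, 4.82 and 0.214 CPM in null libraries 1, 2, A and B. Osteopontin library B lay above null library B. The related receptor Pdgfrb, also carried by pericytes of small vessels, was spread differently. It stood at 0.379, 0.484, 0.895 and 2.99 CPM in osteopontin libraries 1, 2, A and B, against 2.96, 1.10, 3.77 and 1.66 CPM in null libraries of those names, with osteopontin library B level with null library 1. The ligand Pdgfb stood at 7.18 to 13.0 CPM with osteopontin and 8.11 to 12.3 CPM without. None of the 6 other PDGF ligands and receptors had null libraries 1 and A as the 2 highest, against 3.99% of all tested genes. Nothing is read from this count, which is near that share, and of the 4 tested 0 were called.

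Has1 encodes a hyaluronan synthase, an enzyme of the plasma membrane that extrudes hyaluronan (chr17:17843323-17855205, minus strand, beginning at the base after the stretch printed above). It had 0, 0, 0 and 1 reads in osteopontin libraries 1, 2, A and B, against 73, 3, 150 and 1 reads in null libraries 1, 2, A and B. Reads thus came almost wholly from null libraries 1 and A, and here null library A was higher, at 2.10 CPM against 1.27 CPM in null library 1. Of 10 other genes of hyaluronan synthesis, binding and breakdown, 4 had these libraries as their 2 highest. Among the 8 tested the count was 3, against 3.99% of all tested genes. Of the 8, 6 had a lower and 2 a higher fitted level with osteopontin, against 49.9% lower among all tested genes, with 0 called.

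Pcolce2 encodes a secreted protein that speeds the removal of the C-propeptide from procollagen (chr9:95637601-95698096, plus strand). It had 0, 2, 2 and 1 reads in osteopontin libraries 1, 2, A and B, against 117, 7, 171 and 4 reads in null libraries 1, 2, A and B. Every null library was above every osteopontin library, though no osteopontin library reached the floor of 3 reads and null library B held only 4. Its relative Pcolce, also an enhancer of procollagen cleavage, stood at 0.393, 0.279, 0.792 and 0.285 CPM in osteopontin libraries 1, 2, A and B, against 6.51, 1.03, 5.04 and 0.229 CPM in null libraries of those names (log2 fold change -2.86, SE 0.87, edgeR adjusted p = 1.00). Bmp1, the protease that removes the propeptide, stood at 0.448 to 0.960 CPM with osteopontin and at 1.25 to 4.73 CPM without, with no overlap (log2 fold change -1.82, SE 0.63, edgeR adjusted p = 1.00). Of the 7 genes of this list, 5 had null libraries 1 and A as the 2 highest. Among the 6 tested the count was 4, against 3.99% of all tested genes, and 0 were called.

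Sulf1 encodes a secreted sulfatase that removes 6-O-sulfate from heparan sulfate and so alters binding of growth factors (chr1:12692277-12861192, plus strand). It stood at 0.126, 0.0147, 0.0172 and 0.387 CPM in osteopontin libraries 1, 2, A and B, against 3.39, 0.575, 2.44 and 0.992 CPM in null libraries 1, 2, A and B. It fell off least of the 10 in null libraries 2 and B. The related sulfatase Sulf2 stood at 9.88 to 13.4 CPM with osteopontin and 11.2 to 15.1 CPM without. Among 14 genes of heparan sulfate chains, cores and sulfatases, 4 had null libraries 1 and A as the 2 highest. Of the 12 tested, 3 did, against 3.99% of all tested genes. A lower fitted level was found for 7 of the 12 and a higher for 4, against 49.9% lower among all tested genes, with 0 called.

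Dpep1 encodes a membrane dipeptidase, an ectoenzyme that splits dipeptides and converts leukotriene D4 (chr8:123186242-123201812, plus strand). It had 2, 30, 0 and 8 reads in osteopontin libraries 1, 2, A and B, against 343, 22, 360 and 65 reads in null libraries 1, 2, A and B. Its highest osteopontin library was 2, which at 0.440 CPM exceeded null library 2 at 0.342 CPM. Entpd2 encodes an ectonucleotidase that hydrolyses extracellular ATP (chr2:25395874-25401321, plus strand). It had 0, 0, 0 and 1 reads in osteopontin libraries 1, 2, A and B, against 153, 5, 190 and 0 reads in null libraries 1, 2, A and B. Null library B was therefore as empty as the osteopontin libraries. Of 9 other ectonucleotidases, 2 had no read in any library, whereas Nt5e and Entpd1 were abundant in all 8. Nt5e, the CD73 enzyme that makes adenosine, stood at 302.0 to 366.2 CPM with osteopontin and 309.9 to 322.4 CPM without. Entpd1, encoding CD39, stood at 27.8 to 34.6 CPM with osteopontin and 25.6 to 37.8 CPM without. Of the 9 genes of this list, 2 had null libraries 1 and A as the 2 highest. Among the 6 tested the count was 1, against 3.99% of all tested genes. Of the 6, 3 had a lower and 3 a higher fitted level, against 49.9% lower among all tested genes, and 0 were called.

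Ctgf, named Ccn2 in the annotation, encodes connective tissue growth factor, a matricellular protein and a target of YAP and TGF-beta signalling (chr10:24595442-24598683, plus strand). It stood at 0.0421, 0.0293, 0.0172 and 0.489 CPM in osteopontin libraries 1, 2, A and B, against 8.25, 0.358, 5.28 and 0.549 CPM in null libraries 1, 2, A and B. Osteopontin library B and null library B were nearly level. Cyr61, another matricellular protein of the CCN family, was not confined to null libraries 1 and A: it stood at 0.0701, 0.0587, 0 and 2.97 CPM in osteopontin libraries 1, 2, A and B, against 6.09, 4.43, 6.95 and 4.39 CPM in null libraries of those names. Of 5 other CCN genes 2 were tested, Cyr61 and Nov. Both had a lower fitted level with osteopontin, against 49.9% of all tested genes, with 0 called. Without osteopontin library B, Cyr61 passed edgeR's test (log2 fold change -6.89, adjusted p = 0.000216). With all libraries the unadjusted edgeR p of Cyr61 was 0.132. The library removed held its highest osteopontin level, so this call is a description and supports nothing.

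Cxcl1 encodes a chemokine that attracts neutrophils through CXCR2 (chr5:90891241-90893115, plus strand, beginning at the base after the stretch printed above). It stood at 0.0281, 0.0147, 0.0172 and 0.631 CPM in osteopontin libraries 1, 2, A and B, against 5.76, 0.435, 4.45 and 0.183 CPM in null libraries 1, 2, A and B. Osteopontin library B lay above null libraries 2 and B. Il6, a cytokine that stimulated fibroblasts secrete, stood at 0.0701, 0.411, 0 and 0.774 CPM in osteopontin libraries 1, 2, A and B, against 2.85, 0.249, 2.02 and 0.0305 CPM in null libraries of those names. Cxcl12, a homeostatic chemokine of stroma and vessels, followed another order. Its levels were 0.0982, 0.0293, 0 and 12.9 CPM in osteopontin libraries 1, 2, A and B, against 0.922, 10.1, 0.434 and 12.9 CPM in null libraries of those names. Of 9 other CXCR2 ligands and receptors 1, and of 11 other stromal chemokines and cytokines 3, had null libraries 1 and A as the 2 highest. Among their tested genes the counts were 1 of 2 and 1 of 3, against 3.99% of all tested genes. In both lists 0 tested genes were called.

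On a scale corrected for transcript length (TPM), the order of levels in null library 1 was Dcn at 51.7, Cxcl1 at 10.7, Lum at 6.39, Ctgf at 5.37, Dpep1 at 4.19, Entpd2 at 2.19, Pdgfra at 1.22, Sulf1 at 1.12, Has1 at 0.961 and Pcolce2 at 0.687 TPM. In null library A, Dcn stood at 51.6, Cxcl1 at 8.18, Lum at 4.96, Dpep1 at 3.77 and Ctgf at 3.37 TPM. Dcn, Cxcl1 and Lum thus came first in both, and the lower places changed hands between the libraries, with Has1 at 1.56 TPM above Pdgfra at 1.30 TPM in null library A. The 10 genes summed to 0.388, 1.12, 0.213 and 3.26 TPM in osteopontin libraries 1, 2, A and B, against 84.5, 5.38, 78.7 and 2.44 TPM in null libraries 1, 2, A and B.

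Dcn held the largest share of the 10 genes' reads in null libraries 1, A and 2, but not in null library B. Dcn made up 56.0% of the 10 genes' reads in null library 1 (exact 95% interval 54.7 to 57.3), 60.6% in null library A (59.4 to 61.8) and 55.6% in null library 2 (50.5 to 60.6). Its share was 31.0% in osteopontin library B (24.3 to 38.5) and 11.4% in null library B (7.59 to 16.3). In null library B, Dpep1 and Sulf1 took 28.5% each (22.7 to 34.8), against 5.93% and 3.37% in null library 1. Cxcl1 took 17.8% in osteopontin library B (12.4 to 24.3), against 5.72% in null library 1 (5.14 to 6.35). These intervals, like all intervals on reads given here, cover counting error only. The remaining osteopontin libraries held 16 to 59 reads of the 10 genes, too few to place their mix. In osteopontin library 2, Dpep1 alone made up 50.9% of the 59.

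**Figure D1:**
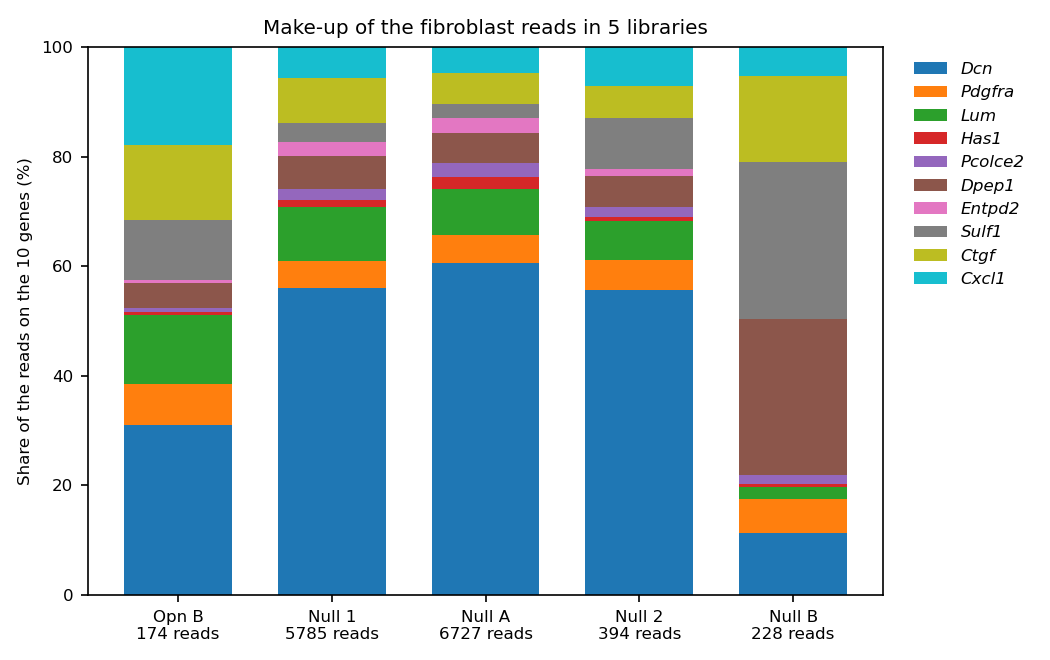
Share of the 10 genes' reads (percent) contributed by each gene in osteopontin library B, at the left, and in null libraries 1, A, 2 and B. Dcn takes over 55% in null libraries 1, A and 2, and 11.4% in null library B, where Dpep1 and Sulf1 take 28.5% each.

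Set against null library 1, the 10 genes fell to a median of 5.54% in null library 2. Dcn stood there at 6.05% of its null library 1 level (5.25 to 6.93), Lum at 4.34% and Pdgfra at 6.92%, whereas Sulf1 stood at 17.0% (11.6 to 24.2). In null library B the percentages were spread more widely. Dcn stood at 0.704% (0.459 to 1.03), Lum at 0.760%, Dpep1 at 16.6% (12.6 to 21.7) and Sulf1 at 29.2% (21.7 to 38.9). In osteopontin library B, Dcn stood at 1.95% and Cxcl1 at 10.96% (7.33 to 15.9) of null library 1. These percentages compare single libraries, and their intervals leave out the spread between libraries.

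The genes had been chosen for high levels in both null libraries 1 and A, so a ratio of these libraries near 1 follows in part from the choice and is given only as a description. The CPM ratio of null library 1 to null library A had a median of 1.10. Dcn stood at 0.987 (0.942 to 1.03), Pdgfra at 1.03 (0.873 to 1.20) and Entpd2 at 1.00 (0.803 to 1.24), and the interval included 1 for these and for Pcolce2. It lay above 1 for 5 genes, with Ctgf highest at 1.56 (1.36 to 1.79) and then Sulf1 at 1.39 (1.13 to 1.72). For Has1 it lay below 1, at 0.604 (0.451 to 0.805). Ratios were also taken for the 25 of 30 other matrix and surface genes that had at least 50 reads in both libraries and were under 1 CPM in at least 1 of the 8, which left out Col1a1, Timp2, Thy1, Pdpn and Fap. Their median ratio was 1.498, and the interval lay above 1 for 21. The interval was 2.86 to 3.14 for Col3a1, a fibrillar collagen chain. Postn, the matricellular protein periostin, stood at 4.18 (3.76 to 4.66). Postn, like Lox at 3.34 and Igfbp6 at 0.674, was chosen after its values were seen.

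**Figure D2:**
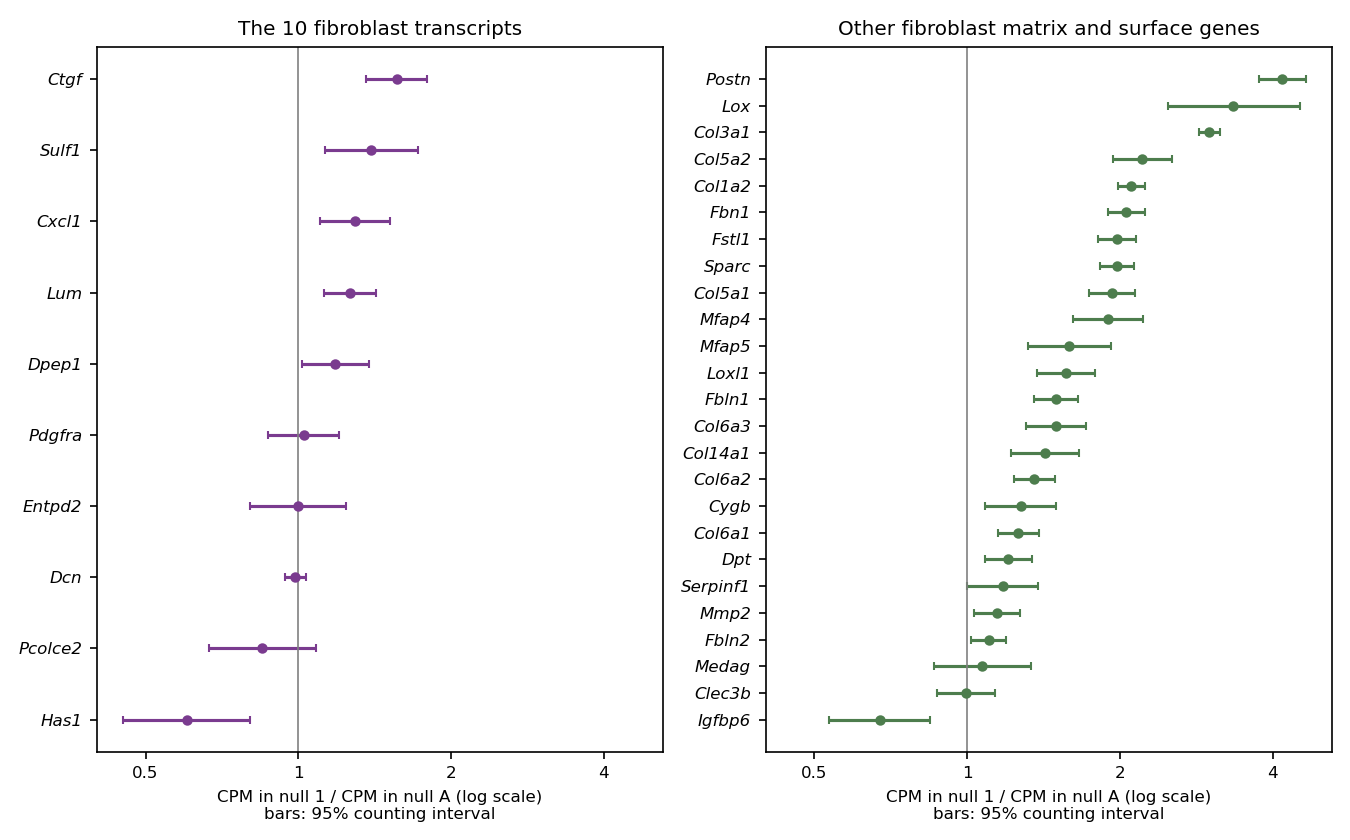
Ratio of CPM in null library 1 to null library A (log axis) with the exact 95% counting interval, for the 10 genes and for 25 other fibroblast matrix and surface genes with at least 50 reads in both and under 1 CPM in at least 1 library. The 10 genes run from 0.604 for Has1 to 1.56 for Ctgf, and the other genes reach 4.18 for Postn.

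The 2 main coding transcripts of Dcn differ in their first exon, and their estimated shares varied between libraries. Both are 1758 bases long in the annotation and share 7 of 8 exons. Their first exons of 181 bases lie at chr10:97479609-97479789 and chr10:97482367-97482547. The upstream first exon took 57.4% of their reads in osteopontin library B (43.2 to 70.8), 69.8% in null library 1 (68.2 to 71.4), 75.9% in null library A (74.5 to 77.2) and 64.1% in null library 2 (57.3 to 70.4). These intervals treat every assigned read as telling the 2 transcripts apart, so they are too narrow. No difference between null libraries 1 and A is read from them. The upstream exon took 6 of 12 reads in osteopontin library 1, 8 of 16 in osteopontin library 2, 0 of 9 in osteopontin library A and 13 of 26 in null library B. The split is an estimate, since most of each transcript is shared, and it was exactly equal in 3 of these 4 libraries with few reads.

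For Dpep1, most reads of osteopontin library 2 were assigned to another transcript than those of the null libraries. Of its 30 reads there, an estimated 26.7 (89.2%) were assigned to a transcript of 985 bases and 3.3 (10.9%) to the main transcript of 2236 bases. The main transcript took 100% in null libraries 1 and B, 96.8% in null library A and 83.4% in null library 2. The split in osteopontin library 2 is an estimate from 30 reads of 1 library, so no difference in make-up is read from it. For Sulf1, with 10 annotated transcripts, the main transcript of 4630 bases took 38.2% of reads in null library 1, 69.6% in null library A, 83.1% in null library B and 0% in null library 2. There another coding transcript of 5598 bases took 55.6% of 37 reads and a retained-intron transcript 34.0%. Cxcl1 reads lay on the main spliced transcript for 92.1% to 95.7% in the libraries with at least 20 reads. Lum and Has1 have 1 annotated transcript each.

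Other genes were ranked by how closely their levels ran with those of the 10. Over the 8 libraries, the 15 genes with the highest Pearson correlation to the mean log2(CPM + 0.5) of the 10, among 10225 genes, included Pcsk6, Dpt, Mgp, Lama2, Col6a2, Pi16, Tnxb, Mmp2, Col6a1, Abca8a, Loxl1, Serping1, Bgn and Col8a1, with r of 0.987 to 0.996. These values describe 8 libraries that all genes share, in which null libraries 1 and A lie far from the rest. Pcsk6, a proprotein convertase, stood at 0.0147 to 0.346 CPM with osteopontin, against 9.69, 0.560, 12.5 and 0.259 CPM in null libraries 1, 2, A and B. Pi16, a marker of adventitial fibroblasts, stood at 0.0172 to 0.876 CPM with osteopontin, against 19.4, 1.01, 16.5 and 0.336 CPM in null libraries of those names.

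Gene by gene, the closest was Pcsk6 for Pdgfra (r = 0.998), Col6a2 for Lum (0.999), Mmp2 for Ctgf (0.997) and Bgn for Cxcl1 (0.997). For Has1 (0.990), Pcolce2 (0.996) and Entpd2 (0.996) it was Gsn, encoding the actin-severing protein gelsolin. Gsn was present in every library, at 55.4, 51.0, 48.5 and 48.9 CPM in osteopontin libraries 1, 2, A and B, against 275.9, 65.5, 321.3 and 50.7 CPM in null libraries 1, 2, A and B. Its level in null libraries 1 and A thus stood on top of a level that all libraries had. Dpep1 was closest to Ccdc80 (0.971) and Sulf1 to Zfp763 (0.972). Among the 45 pairs of the 10 genes, r ran from 0.864 to 0.998 with a median of 0.964.

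The fibroblast name was set beside 30 other matrix and surface genes, a list also made with these data known and therefore no independent evidence. Null libraries 1 and A were the 2 highest for 26 of the 30 and for 24 of the 28 tested, against 3.99% of all tested genes. All 28 that passed the filter on low counts had a lower fitted level with osteopontin, with a median log2 fold change of -3.87 against 0.00 over all tested genes. Genes near the floor in osteopontin libraries pass that filter through their null libraries, so this direction is a description and supports nothing. None was called by edgeR. An unadjusted edgeR p under 0.05 was found for 16 of the 28, against 388 lower and 344 higher among all 18631 tested genes. DESeq2 called 5 lower and 0 higher, against 0.156% lower among all tested genes: Col6a1, Col6a2, Col6a3, Col5a2 and Loxl1. For the same reason these counts are a description and support nothing. Col3a1 stood at 0.521, 0.602, 0.775 and 5.66 CPM in osteopontin libraries 1, 2, A and B, against 106.0, 2.44, 35.3 and 0.983 CPM in null libraries 1, 2, A and B. Sparc, a matrix glycoprotein that endothelial cells also make, differed from these: it stood at 0.547, 0.484, 0.241 and 19.4 CPM in osteopontin libraries 1, 2, A and B, against 29.9, 11.04, 15.2 and 12.1 CPM in null libraries of those names. Without osteopontin library B, Sparc (log2 fold change -5.31, edgeR adjusted p = 4.47e-05) and Fbln2 (-6.94, adjusted p = 0.00674) were called lower. With all libraries their unadjusted edgeR p was 0.293 and 0.105. The library removed was the highest of its group for both genes, so these calls are a description and support nothing.

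The fitted log2 fold changes of the 7 genes of the 10 that passed the filter ran from -6.16 for Dcn to -3.76 for Sulf1, with a median of -4.66. Has1, Pcolce2 and Entpd2 did not pass it. A gene that passes only through its null libraries has to differ, so these values describe the libraries and support nothing. Without null libraries 1 and A the median was -1.66, and without both libraries named B it was -7.17. The list of 30 had a median of -0.43 without null libraries 1 and A.

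Endothelial and enterocyte markers followed another order of libraries. Endothelial markers other than Pecam1, which leukocytes also express, summed to 6.84, 3.09, 5.32 and 77.7 CPM in osteopontin libraries 1, 2, A and B, against 8.03, 69.4, 8.55 and 66.5 CPM in null libraries 1, 2, A and B. They were thus high in osteopontin library B and in null libraries 2 and B, and low in null libraries 1 and A. Cdh5, the cadherin of endothelial junctions, stood at 2.19, 0.176, 0.482 and 15.8 CPM in osteopontin libraries 1, 2, A and B, against 1.60, 16.2, 1.63 and 14.6 CPM in null libraries of those names. Rgs5, a pericyte gene, stood at 0, 0.0147, 0.0172 and 3.44 CPM in osteopontin libraries 1, 2, A and B, against 0.139, 6.79, 0.0560 and 4.27 CPM in null libraries of those names. Enterocyte markers other than Epcam and Cdh1 summed to 14.5, 15.9, 16.2 and 53.8 CPM with osteopontin, against 17.8, 17.5, 19.3 and 48.0 CPM in null libraries 1, 2, A and B, so they were high in both libraries named B. Fibroblast genes other than Thy1 and Timp2 summed to 13.5, 11.8, 12.7 and 61.2 CPM with osteopontin, against 504.4, 34.6, 259.6 and 31.1 CPM in null libraries of those names. The genes left out of these sums were chosen after their values were seen. None of 12 endothelial, 10 enterocyte, 8 macrophage or 6 intraepithelial lymphocyte markers had null libraries 1 and A as the 2 highest. The share over all tested genes was 3.99%, and a count of 0 is near it in lists this short, so nothing is read from it. Of their 9, 8, 7 and 6 tested genes 0 were called, as over all tested genes. Without osteopontin library B, the endothelial receptor gene Tek was called lower (log2 fold change -6.48, edgeR adjusted p = 0.0114). This removed the osteopontin library in which the endothelial sum was high, so the call is a description and supports nothing. The intraepithelial lymphocyte markers summed to between 5346 and 5929 CPM over the 8 libraries. The part of RNA from these other cells in the levels of the 10 genes was not tested.

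Narrower groups of stromal genes followed null libraries 1 and A in part. These were the 2 highest for 6 of 15 mesenchymal transcription factors, 4 of 12 adventitial and crypt-base fibroblast genes, 4 of 10 subepithelial telocyte genes and 4 of 9 genes responsive to YAP or TGF-beta. Among their tested genes the counts were 1 of 3, 4 of 9, 1 of 4 and 4 of 8, against 3.99% of all tested genes. Null libraries 1 and A were the 2 highest for 1 of 13 smooth muscle and pericyte markers, 2 of 5 glial markers, 0 of 6 mesothelial markers, 0 of 5 adipocyte markers and 0 of 2 other membrane dipeptidases. The median log2 fold change of the tested genes was -2.06 over 9 adventitial and crypt-base genes and -0.21 over 4 telocyte genes, against 0.00 over all tested genes, and 0 genes of these lists were called. Without osteopontin library B, Cd34 of the adventitial list was called lower (log2 fold change -3.61, edgeR adjusted p = 0.00721). The library removed held the highest osteopontin level of Cd34, so the call is a description and supports nothing. Among the transcription factors, Tcf21 stood at 0.0140, 0, 0 and 0 CPM in osteopontin libraries 1, 2, A and B, against 1.22, 0.0466, 1.30 and 0.0305 CPM in null libraries 1, 2, A and B. Foxl1, a telocyte factor, ran the other way, at 0.295, 0.147, 0.207 and 0 CPM in osteopontin libraries of those names, against 0, 0.0311, 0 and 0.0305 CPM in null libraries of those names. Snai2 too averaged higher with osteopontin, at 0.667 CPM against 0.439 CPM without, with overlapping groups. No read was found in any library for Nkx2-3, a transcription factor of gut mesenchyme, Rspo3, a Wnt agonist of crypt-base fibroblasts, Bnc1 of mesothelium or Cidec of fat cells. These genes, Tcf21, Foxl1, Snai2, Tek and Cd34 were chosen after their values were seen.

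**Figure D3:**
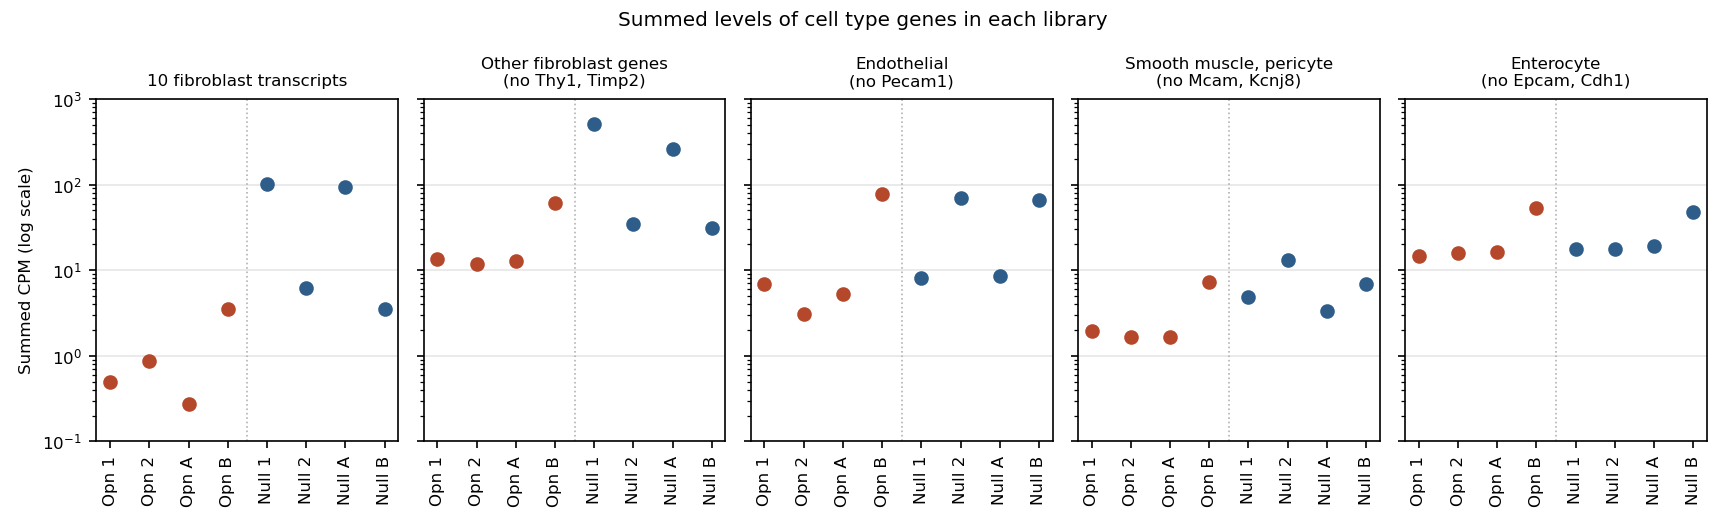
Summed CPM (log scale) of marker groups in each library, osteopontin libraries left of null libraries. Fibroblast sums are highest in null libraries 1 and A at 504.4 and 259.6 CPM, and endothelial sums are highest in osteopontin library B and null libraries 2 and B at 77.7, 69.4 and 66.5 CPM.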

How the data were processed

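RNA of 8 libraries was sequenced. Salmon is named per the submitters' processing notes, with version, annotation release and build not given in the sources used here. For each library the authors deposited estimated counts (reads per transcript, not necessarily whole), TPM and transcript lengths for 133618 transcripts of 52661 genes. The deposited TPM values served only to order levels between genes.

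Estimated counts were summed per gene, rounded, filtered (filterByExpr, minimum count 10) and scaled by TMM. They were tested with edgeR 4.0.16 (robust quasi-likelihood F test, two-sided, group as the only term, adjusted p under 0.05 over 18631 genes). The fit was also run on simulated counts of a single fixed spread, with changes only in more abundant genes. That check does not cover genes near the floor or spread as widely as the 10. Each log2 fold change is osteopontin over null. CPM used unscaled library totals. Intervals on ratios and shares are exact 95% binomial (Clopper-Pearson) intervals. Annotation came from GENCODE M21 (GRCm38), in which 52566 of the 52661 gene IDs were found.

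Alternatives were DESeq2 1.42.0, RLE scaling, no filter, a prior count of 2, a replicate block, each library left out, null libraries 1 and A left out and both libraries named B left out. The rule named the 10 members, up to 4 genes of highest mean TPM per list, the small families, the 15 most alike genes (at least 5 CPM in a library) and the gene most alike to each member. The members, the 23 lists and the tests were chosen with earlier results of these data known. The results of 1 gene that the rule names are not reported here.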

Additional observations from a re-analysis of the deposited data

Results flagged for a closer look

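In groups of 4 libraries, 1 value stood apart from the other 3 by Dixon's criterion in 20 of 80 groups, where chance marks about 1 in 20. In 19 of the 20 cases the library was osteopontin library B. Among the 10 genes there were 5 such cases in 20 groups, all in osteopontin library B. That library stood at 1.10 CPM for Dcn against 0.155 to 0.249 CPM in the other osteopontin libraries. It stood at 0.265 CPM for Pdgfra, 0.448 CPM for Lum, 0.489 CPM for Ctgf and 0.631 CPM for Cxcl1.

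For other matrix and fibroblast genes the same library stood at 1.71 CPM for Bgn, 5.66 CPM for Col3a1, 19.4 CPM for Sparc, 0.876 CPM for Pi16, 0.346 CPM for Pcsk6, 0.265 CPM for Dpt, 0.591 CPM for Mgp, 1.26 CPM for Postn and 2.97 CPM for Cyr61. For vessel genes it stood at 15.8 CPM for Cdh5, 6.04 CPM for Egfl7, 3.44 CPM for Rgs5 and 12.9 CPM for Cxcl12. Nt5e stood at 366.2 CPM there against 302.0 to 310.0 CPM in the other osteopontin libraries. The remaining case was Bmp1 in osteopontin library 2, at 0.448 CPM against 0.874 to 0.960 CPM in the others. These genes share a library, so the cases are not independent.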

How the results depend on the processing

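RLE scaling and a prior count of 2 left 0 genes called, as did the replicate block, which gave a median log2 fold change of -4.90 for the 7 tested members and -3.49 for the fibroblast list. Same-named libraries of the 2 groups correlated at 0.082, 0.074, 0.088 and 0.133 in their deviations, and every library correlated best with its namesake. The names may therefore mark pairs, but the labels do not say so. The main fit left them unpaired, and the replicate block is the paired alternative. Without the filter, 3 genes were higher and 1 (Prelp) lower. DESeq2 called 12 higher, 29 lower and 5 fibroblast list genes lower. Without null libraries 1 and A the member median was -1.66 and the fibroblast median -0.43. Without both libraries named B, 1 gene was higher, 48 were lower, 3 of them in the fibroblast list, and the medians were -7.17 and -5.36. Leaving out 1 library at a time gave 0 to 2 higher, 0 to 35 lower, 0 to 2 fibroblast genes lower, member medians from -6.82 to -3.85 and fibroblast medians from -5.04 to -2.78. The members were chosen for high levels in null libraries 1 and A, so their shift without these libraries follows from the choice. The cause of the other shifts was not tested. For single members, 85 of 105 alternative values lay within 1 SD and 20 moved, and none was above 0. Has1, Pcolce2 and Entpd2 had 1, 5 and 1 reads over all osteopontin libraries, so their fold changes are not given.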
